A study of Mus musculus with 9 samples.

Results

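The 9 genes described here encode subunits of neurotransmitter-gated ion channels: the 4 AMPA-type glutamate receptor subunits Gria1 to Gria4, the kainate-type subunits Grik2 and Grik5, and the GABA-A receptor subunits Gabra4, Gabra2 and Gabrg1. They are 9 of the 24102 rows of an expression table of sorted mouse limb cells. The members were chosen by gene symbol, with the measured mutant and control values already known: Gria2 and Gabra4 had stood out in that same contrast. Their levels and differences are therefore given as a description, with no test. All 9 have a row, and 7 passed the filter of 1 FPKM (fragments per kilobase of transcript, scaled to library size) in at least 3 of the 6 columns. Gabra2 and Gabrg1 did not pass it. Grik2 passed it with 1 control column and all 3 mutant columns.

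The cells were taken from limbs of embryos at E12.5, when the limb skeleton begins to form. Controls had the genotype Shox2(Cre/+);Rosa(mTmG), and mutants Shox2(Cre/-);Rosa(mTmG). Both groups thus carried a Cre allele at the Shox2 locus, which drives Cre only where that locus is active, and the mTmG reporter, which makes a green membrane protein after Cre has acted. Limbs were digested and the GFP-positive cells were sorted by flow cytometry. Because recombination is permanent, the sort takes cells that express Shox2 and cells that expressed it earlier. The series has 9 samples: 3 controls, 4 mutants and 2 whole limbs, and the litter numbers run to 3. The expression table has 6 columns, 1 control and 1 mutant for each of the 3 litters. Litter 1 has 2 mutant samples, and the sources used here leave unstated if its mutant column is 1 of them or both. Whole limbs were not analysed here. The labels do not count the embryos behind a column, so the spread between columns may be partly technical.

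Ionotropic receptors are ligand-gated channels built from several subunits around a pore. AMPA receptors are tetramers of GluA1 to GluA4 (Gria1 to Gria4) and carry most fast excitation in the brain. Edited GluA2 keeps calcium from passing through the channel. Kainate receptors combine GluK2 (Grik2), which can form channels alone, with subunits such as GluK5 (Grik5), which cannot. Most GABA-A receptors are pentamers of alpha, beta and gamma subunits that conduct chloride. These genes are best known from neurons and glia, while the tissue sampled here is the embryonic limb, most of which is mesenchyme, the connective tissue that forms cartilage and tendon.

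Shox2, the targeted gene, encodes a homeodomain transcription factor needed for the proximal limb skeleton. In litters 1, 2 and 3 it was at 217, 222 and 210 FPKM in controls and at 16.7, 18.3 and 96.9 FPKM in mutants. The litter 3 mutant column thus kept 46.2% of its control, against 7.68% and 8.25% in the other two, and values without it are given below where they bear on a result. In the litter 2 mutant column Eif2s3y and Kdm5d, both on the Y chromosome, had a value of 0. Xist, the X-inactivation RNA, was at 178 FPKM there. The other 5 columns had transcripts of both Y-linked genes and also of Xist. Xist was at 12.1, 34.6 and 73.0 FPKM in controls and at 36.8 and 68.4 FPKM in the mutants of litters 1 and 3. The sex makeup of the columns was not tested. Of the limb mesenchyme markers, 11 of 12 had a row and none was at 0. Without Shox2 itself the other 10 summed to 934, 1166 and 1076 FPKM in controls and 909, 1475 and 1310 FPKM in mutants. Summed levels of 23 neuron markers were 105, 154 and 80.5 FPKM in controls and 184, 105 and 103 FPKM in mutants. Of these 23, 21 were higher in the mutant column in litter 1, 5 in litter 2 and 18 in litter 3, and 8 stayed under 1 FPKM in all columns. Among the 8 were Rbfox3, Nefh, Pou4f1, Slc17a7, Gad1, Gad2 and Slc32a1, which include the genes for transmitter synthesis and vesicle loading in inhibitory neurons. Glia and Schwann cell markers summed to 49.6 to 67.3 FPKM in controls and 40.2 to 53.6 FPKM in mutants, with overlap. Ngfr, at 29.4 ± 2.78 FPKM in controls and 20.5 ± 5.15 FPKM in mutants, was the largest part of that sum. Of these 13 markers, 9 were higher in the mutant column in litter 1, 10 in litter 2 and 6 in litter 3. Sox10, Erbb3, Foxd3 and Cdh19 were higher in 3 of 3 litters, as were 15.7% of all tested rows. Ngfr was the 1 marker below in the mutants without overlap, and Cdh19 the 1 above. Foxd3 and Cdh19 did not pass the filter. Endothelial markers summed to 6.97, 18.9 and 8.41 FPKM in controls and 5.80 to 6.03 FPKM in mutants, without overlap. Of 8 such markers, 4 were below in the mutants without overlap, as were 5.03% of all tested rows. Emcn and Esam, which are among the 4, did not pass the filter. Lyz2, a myeloid cell gene, was at 26.4 FPKM in the litter 2 mutant column and at most 0.758 FPKM in the others. The part of these cell types in the levels of the 9 genes was not tested.

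In controls the 9 genes spanned a wide range of levels, and most were low for a detected gene. The median over the 12314 tested rows was 13.6 FPKM in controls and 13.2 FPKM in mutants, and of the 9 genes only Grik5 lay above it. The control order was Grik5 at 33.9 ± 15.5 FPKM, Gria3 at 6.25 ± 1.21 FPKM, Gria1 at 2.05 ± 0.331 FPKM, Gria2 at 1.94 ± 0.420 FPKM, Gria4 at 1.43 ± 0.556 FPKM and Gabra4 at 1.36 ± 0.125 FPKM (SD, n = 3 columns here and below). Grik2 followed at 0.736 ± 0.321 FPKM, Gabra2 at 0.492 ± 0.282 FPKM and Gabrg1 at 0.00437 ± 0.00757 FPKM. Column values of neighbours in this order overlapped from Gria1 through Gria2 and Gria4 to Gabra4, and between Grik2 and Gabra2. Grik5 and Gria3 each stood clear of the next gene, and so did Gabra4 and Gabra2. In mutants the order was Grik5, Gria2, Gria3, Gabra4, Gria4, Grik2, Gria1, Gabra2 and Gabrg1. Neighbours stood clear of each other there only between Gria3 and Gabra4 and between Gabra2 and Gabrg1. Gria2 moved from rank 4, above 8.61% of tested rows, to rank 2, above 39.7% of them.

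**Figure D1:**
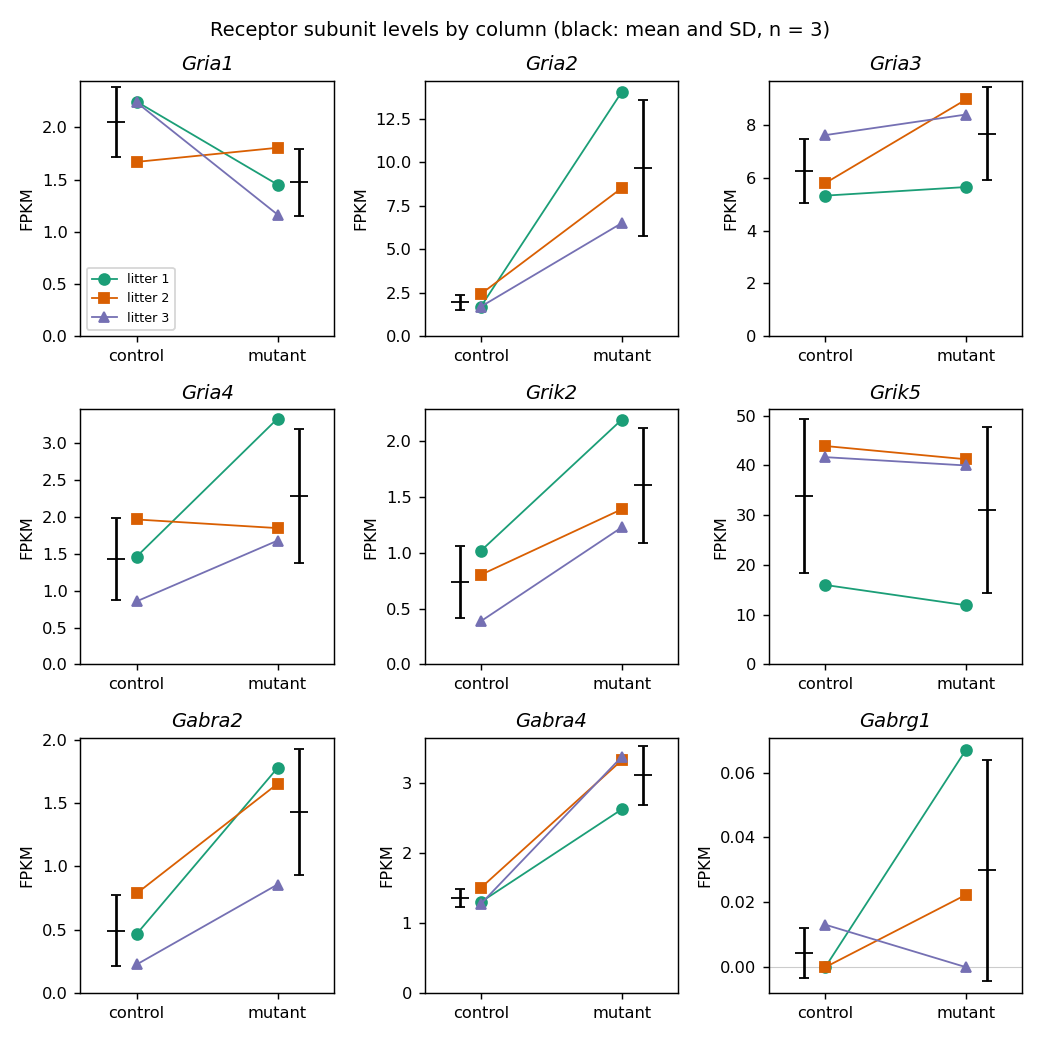
FPKM of each of the 9 subunit genes in the control and mutant column of each litter, with the 2 columns of a litter joined by a line and the mean and SD of 3 columns per group in black beside them; each panel has its own FPKM axis. Gria2, Grik2, Gabra2 and Gabra4 have every mutant column above every control column, the lines of Gria1 and Gria4 cross between litters, and Grik5 separates litter 1 from litters 2 and 3 rather than mutant from control.

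Of the AMPA receptor subunits, Gria2 had the largest difference between genotypes, and Gria1, Gria3 and Gria4 had overlapping groups. Gria2 encodes GluA2, the subunit that sets calcium permeability of the receptor. Its level in litters 1, 2 and 3 was 1.70, 2.42 and 1.69 FPKM in controls and 14.1, 8.53 and 6.51 FPKM in mutants. Every mutant column lay above every control column, the 3 controls were close together and the mutants were spread, with litter 1 highest and litter 3 lowest. The group means were 1.94 ± 0.420 and 9.70 ± 3.91 FPKM, a 5.01-fold ratio, and the ratios within litters were 8.29, 3.52 and 3.84. The mean difference in log2(FPKM + 1) was 1.81 with a standard error of 0.28 from limma's fit over all rows. This scale understates the difference of low genes, and on it Gria2 differed by 2.04 without the litter 3 mutant column and by 1.53 without the litter 1 mutant column. In bulk RNA, more cells of a type and more RNA per cell cannot be told apart.

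Neuron markers were mixed within and between litters. Tubb3, the neuronal beta-tubulin, was at 17.7, 28.1 and 6.90 FPKM in controls and at 35.1, 12.51 and 7.97 FPKM in mutants, so its mutant column was the lower one in litter 2. Syt1, a calcium sensor of synaptic vesicles, was at 0.989, 0.649 and 0.482 FPKM in controls and at 2.79, 1.60 and 0.741 FPKM in mutants, higher in the mutant of each litter. Of the 23 neuron markers, 4 were higher in 3 of 3 litters, as were 15.7% of all tested rows. The part of neurons in the Gria2 level was not tested.

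**Figure D2:**
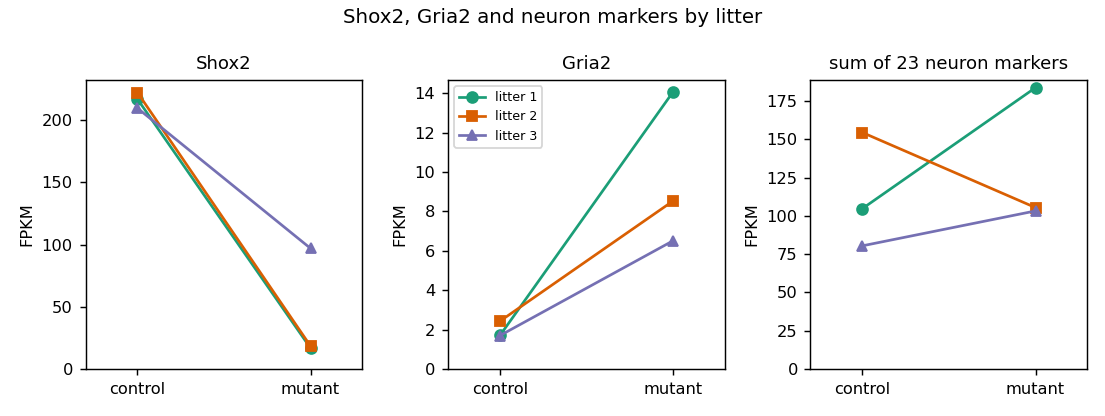
FPKM of Shox2, of Gria2 and of the sum of 23 neuron markers in the control and mutant column of each litter, joined by litter; each axis starts at 0. Shox2 is lower and Gria2 higher in the mutant column of all 3 litters, while the neuron marker sum is higher in the mutant in litters 1 and 3 and lower in litter 2 (154 against 105 FPKM).

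Gria3, which encodes GluA3, was the most abundant AMPA subunit transcript of the controls. It was at 5.33, 5.80 and 7.62 FPKM in controls and at 5.65, 8.98 and 8.40 FPKM in mutants. The mutant column was the higher one in each litter, but the groups overlapped, and the log2 difference was 0.25 with a standard error of 0.21. Gria3 lies on the X chromosome, and its largest ratio within a litter, 1.55, was in litter 2, where the mutant column lacked Y-linked transcripts. The part of sex in that ratio was not tested.

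Gria1, which encodes GluA1, was at 2.25, 1.67 and 2.24 FPKM in controls and at 1.45, 1.80 and 1.16 FPKM in mutants. It was lower in the mutant in litters 1 and 3 and slightly higher in litter 2, with a log2 difference of -0.31 and a standard error of 0.17. Gria4, which encodes GluA4, was at 1.46, 1.97 and 0.856 FPKM in controls and at 3.33, 1.85 and 1.68 FPKM in mutants. It was higher in the mutant in litters 1 and 3 and lower in litter 2, with a log2 difference of 0.43 and a standard error of 0.26. These are the same directions by litter as those of the neuron marker sum, and the part of neurons in the Gria4 values was not tested.

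The makeup of the AMPA receptor transcripts differed between the groups mainly in Gria2. Of the summed FPKM of Gria1 to Gria4, Gria2 held 15.8, 20.4 and 13.6% in controls and 57.4, 40.3 and 36.7% in mutants, with means of 16.6 ± 3.47% and 44.8 ± 11.1%. The sum itself was 10.7, 11.9 and 12.4 FPKM in controls and 24.5, 21.2 and 17.8 FPKM in mutants. Without Gria2 it was 9.04, 9.44 and 10.7 FPKM against 10.4, 12.6 and 11.2 FPKM, where the groups overlapped. The share of Gria1 went the other way, from 17.7 ± 3.44% to 7.002 ± 1.36%, and shares of one sum depend on each other. Gria3 held 53.3 ± 7.02% in controls and 37.6 ± 12.8% in mutants, and Gria4 12.4 ± 4.96% and 10.6 ± 2.63%.

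**Figure D3:**
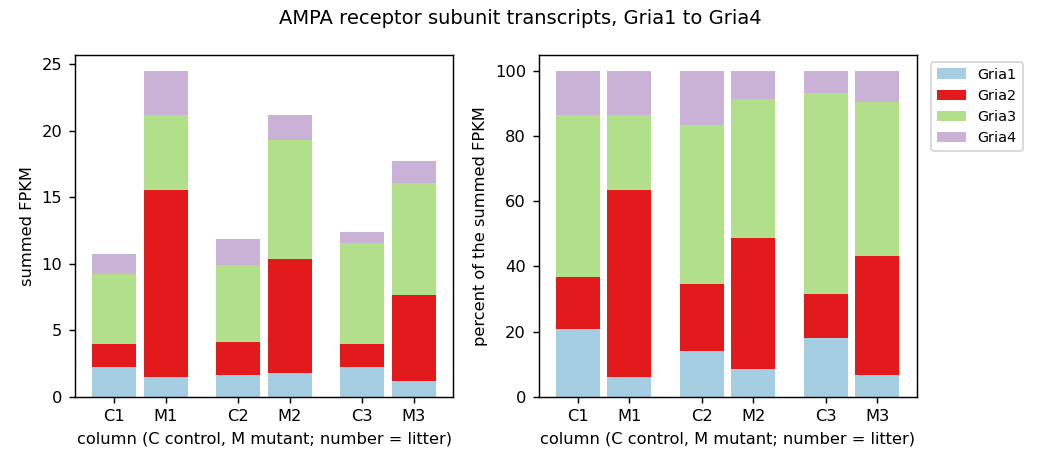
Stacked FPKM of Gria1, Gria2, Gria3 and Gria4 in each column (left, axis from 0) and the same as percent of their sum (right), with C for control, M for mutant and the litter number. The added height of the mutant bars is mostly Gria2, whose share is at most 20.4% in the controls and at least 36.7% in the mutants.

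Among the kainate receptor subunits, Grik2 was low and higher in the mutants, and Grik5 was the most abundant of the 9 genes and followed the litter. Grik2 was at 1.02, 0.803 and 0.388 FPKM in controls and at 2.19, 1.39 and 1.23 FPKM in mutants. The groups did not overlap, though the highest control and the lowest mutant were close, and the ratios within litters were 2.15, 1.73 and 3.17. Its log2 difference was 0.58 with a standard error of 0.22. Grik5 was at 16.0, 43.9 and 41.7 FPKM in controls and at 11.9, 41.2 and 40.0 FPKM in mutants. It was slightly lower in the mutant of each litter, with ratios of 0.744, 0.939 and 0.960, and the groups overlapped almost fully. The step between litters was much larger: litters 2 and 3 averaged 2.68-fold over litter 1 in controls and 3.42-fold in mutants. A step of over 2-fold in FPKM + 1, a scale that shrinks the ratios of low rows, occurred in 5.16% of tested rows in controls and 5.42% in mutants. Normalisation is stated in the table separately for each litter, and the part of scaling in this step was not tested. The log2 difference of Grik5 was -0.18, with a standard error of 0.58 in the fit that does not pair litters. With a whole litter pair left out it stayed below 0: -0.07, -0.23 and -0.24 without litters 1, 2 and 3. Leaving out 1 column leaves the other column of its litter unpaired. The difference was then 0.38 without the litter 1 mutant column and -0.64 without the litter 1 control column. It was also above 0 without the control column of litter 2 (0.06) or of litter 3 (0.03).

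The 3 GABA-A receptor genes lie in a single cluster on chromosome 5, in the order Gabrg1, Gabra2, Cox7b2, Gabra4 and Gabrb1. Gabra2 and Gabra4 were higher in every mutant column, and Gabrg1 was at or near 0 throughout. Gabra4, which encodes the alpha-4 subunit found mostly in receptors outside synapses, was at 1.30, 1.50 and 1.27 FPKM in controls and at 2.62, 3.32 and 3.37 FPKM in mutants. Both groups were tight and well apart, with means of 1.36 ± 0.125 and 3.10 ± 0.419 FPKM. The ratios within litters were 2.02, 2.21 and 2.65, and the log2 difference was 0.80 with a standard error of 0.15. The litter with the highest remaining Shox2, litter 3, had the largest Gabra4 ratio, and without its mutant column the difference was 0.75. Gabra2, which encodes the alpha-2 subunit common in the embryonic nervous system, was at 0.465, 0.786 and 0.225 FPKM in controls and at 1.78, 1.65 and 0.856 FPKM in mutants. Its lowest mutant value was just above its highest control value, and the ratios within litters were 3.82, 2.10 and 3.81. The log2 difference of Gabra2 in a fit without the filter was 0.70 with a standard error of 0.22. Gabrg1, which encodes a gamma subunit, was listed at 0, 0 and 0.0131 FPKM in controls and at 0.0671, 0.0224 and 0 FPKM in mutants, so no direction can be read from it. No read counts are at hand, and depth is unknown.

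Of the genes around Gabra2 and Gabra4, Gabrb1 had the difference nearest to theirs, and the genes flanking the cluster had smaller ones. Gabrb1, the beta-1 subunit gene at the other end of the cluster, was at 0.321, 0.144 and 0.145 FPKM in controls and at 0.823, 1.06 and 0.374 FPKM in mutants. It did not reach the filter, and in limma's fit without the filter its log2 difference was 0.53 with an adjusted p of 1.00 and an unadjusted p of 0.0185. Gabra4 and Gabrb1 start next to each other on opposite strands and their first exons overlap in the GENCODE annotation, so reads from the overlap cannot be assigned without strand information. Cox7b2, a cytochrome oxidase subunit gene between Gabra2 and Gabra4, was at 0.315, 5.07 and 0 FPKM in controls and at 0.150, 0.463 and 0.153 FPKM in mutants. Outside the cluster, the mean log2 difference was 0.28 for Gnpda2, 0.08 for Guf1 and 0.12 for Yipf7 on the Gabrg1 side, and Yipf7 was listed at 0 in the controls. On the Gabrb1 side it was 0.09 for Commd8, 0.17 for Corin and 0.11 for Nfxl1. Gnpda2 and Corin also had mutants above controls without overlap, by smaller ratios of 1.23 and 1.15. So did Yipf7, which was at most 0.134 FPKM in the mutants.

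The sequences before the start sites are shown for the 3 clustered GABA-A genes because 2 of them were higher in the mutants and the third was not detected or nearly so, and for Gria2 as the gene with the largest difference. RefSeq promoter windows on GRCm38.p6 were found for 7 of the 9 genes. The 250 bases before the start are given, all on the minus strand, with each CG dinucleotide in capitals: Gria2 at chr3:80802836-80803085, Gabra2 at chr5:71095850-71096099 and Gabrg1 at chr5:70842618-70842867. For Gabra4 only the 195 bases at chr5:71658364-71658558 are printed, since exon sequence of Gabrb1 covers the rest of its window.
Gria2: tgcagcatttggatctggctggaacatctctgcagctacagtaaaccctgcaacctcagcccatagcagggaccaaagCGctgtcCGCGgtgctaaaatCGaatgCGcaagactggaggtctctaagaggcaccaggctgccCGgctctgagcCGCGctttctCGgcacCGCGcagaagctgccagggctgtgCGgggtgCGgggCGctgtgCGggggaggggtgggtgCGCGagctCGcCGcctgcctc
Gabra2: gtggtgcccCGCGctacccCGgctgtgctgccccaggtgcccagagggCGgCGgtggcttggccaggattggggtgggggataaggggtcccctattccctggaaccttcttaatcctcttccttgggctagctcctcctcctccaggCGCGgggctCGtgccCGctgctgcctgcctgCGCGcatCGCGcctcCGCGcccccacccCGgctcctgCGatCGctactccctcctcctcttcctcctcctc
Gabra4: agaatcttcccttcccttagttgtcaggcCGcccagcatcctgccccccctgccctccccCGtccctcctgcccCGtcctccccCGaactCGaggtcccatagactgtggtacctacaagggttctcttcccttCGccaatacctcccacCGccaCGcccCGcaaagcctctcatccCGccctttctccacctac
Gabrg1: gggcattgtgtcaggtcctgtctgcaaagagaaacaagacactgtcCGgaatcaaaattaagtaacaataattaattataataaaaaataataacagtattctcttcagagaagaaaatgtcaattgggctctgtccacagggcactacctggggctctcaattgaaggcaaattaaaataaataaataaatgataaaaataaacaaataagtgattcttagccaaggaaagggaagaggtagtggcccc
The windows of Gria2, Gabra2 and Gabra4 are rich in CG, and that of Gabrg1 is not. Over the full 250 bases Gria2 had 19 CG dinucleotides and 64.8% G or C, Gabra2 18 and 70.0%, Gabra4 12 and 61.2%, and Gabrg1 1 and 35.6%. The medians over 32851 mouse windows of that length were 6 CG dinucleotides and 52.4%. On both strands, the homeodomain-type core TAATTA matched the Gabrg1 window 2 times and TAATTG matched none of the 4 windows. Of all windows, 4.84% hold TAATTA and 7.17% hold TAATTG. The GC-box core GGGCGG matched Gabra4 2 times and Gabra2 1 time, and 32.7% of all windows hold it. TAATTA and TAATTG differ only in their last letter, and the 2 TAATTA matches in Gabrg1 overlap each other. A match or its lack is a description of these bases only.

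Gria2 lies on chromosome 3, as does Shox2, and its next gene with a row on one side is Glrb. Glrb, the beta subunit of the glycine receptor, another chloride channel, was at 6.58, 2.93 and 5.50 FPKM in controls and at 12.3, 11.2 and 11.8 FPKM in mutants. Its mutants were all above its controls, with a log2 difference of 1.14 and a standard error of 0.26. In limma's test over all rows its adjusted p was 0.753, and 0.0817 with litter as a replicate block. Beyond Glrb, Pdgfc, a growth factor gene, had a log2 difference of 0.37 with overlapping groups. On the other side the differences were -0.03 for Gask1b, 0.28 for Tmem144 and 0.07 for Rxfp1. All 5 of these neighbours, and Gria2, are on the authors' deposited list of genes they named as directly repressed by Shox2, including Rxfp1, which was at most 0.430 FPKM. Of the 11 genes in and around the GABA-A cluster, the authors' deposited list holds 0. Of the 9 subunit genes it holds 1, Gria2, beside 9 of 102 wider receptor genes and 7.85% of tested rows. The sources used here do not say how the list was made, and presence on it is not independent evidence of a direction.

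**Figure D4:**
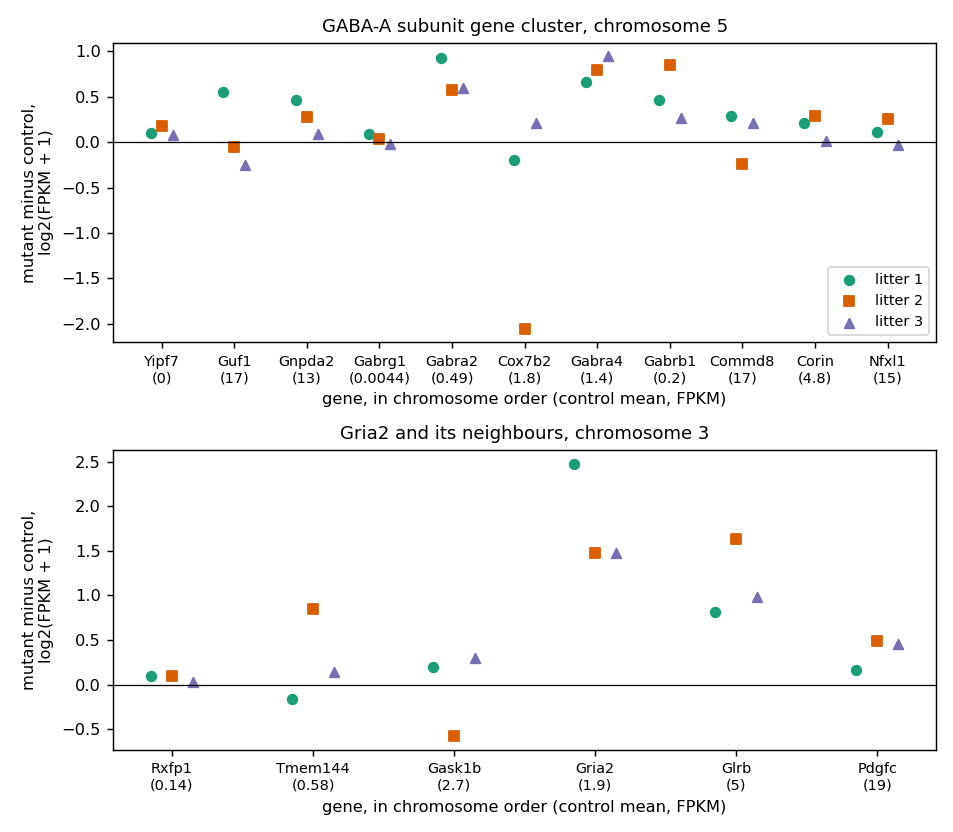
Difference of the mutant from the control column in log2(FPKM + 1) for each litter, for genes in chromosome order around the GABA-A cluster (top) and Gria2 (bottom), with the mean control FPKM under each name. Gabra2, Gabra4 and Gabrb1 have all 3 litters above 0, and Cox7b2 between them does not. The flanking genes Yipf7, Gnpda2 and Corin also have all 3 litters above 0, with smaller mean differences. Gria2 and Glrb have the largest mean differences of their region (1.81 and 1.14).

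Across all 12314 tested rows, limma with a Benjamini-Hochberg threshold of 0.05 called 0 rows (0%), and 0 (0%) with litter as a replicate block. An unadjusted p under 0.05 was found for 272 higher and 167 lower rows without the replicate block, and for 658 and 775 with it. Mutants lay above controls without overlap in 520 rows (4.22%) and below in 619 (5.03%). The mutant column was the higher one in 3 of 3 litters in 1936 rows (15.7%) and the lower one in 2748 rows (22.3%). Of the 9 subunit genes, 4 had mutants above controls without overlap, 5 were higher in 3 of 3 litters and Grik5 was lower in 3 of 3. The choice of the genes used this contrast, so nothing is read from those counts. With 3 columns against 3, the smallest two-sided p of an exact permutation test is 0.1.

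The wider receptor system was described from 9 lists of other glutamate, GABA and glycine receptor genes and their partners, 105 in all. A row was found for 102, with none for Nptxr, Glul and Glud1. Of the 102, 48 were tested, 43 stayed under 1 FPKM in all columns and 2 of these, Gabra6 and Glra3, were at 0. Among the 48, limma called 0 with or without the replicate block. An unadjusted p under 0.05 was found for 6 higher and 0 lower genes, and for 8 and 2 with the replicate block. Both counts of higher genes include Glra2, which passed the filter through its mutant columns alone. Mutants were above controls without overlap for 8 of 48, Glra2 included, and below for 1, and in 3 of 3 litters 11 were higher and 10 lower. The median log2 difference of the 48 was -0.04, and that of all tested rows was also -0.04. The names below are taken from the up to 3 most abundant tested genes of each list, and the others were chosen after their values were seen.

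Partners that a channel would need were present for some receptor types and near 0 for others. Of 12 other ionotropic glutamate receptor subunits, 4 were tested. Grin1, the obligatory subunit of NMDA receptors, was at most 0.153 FPKM in any column. Grin3a, an NMDA subunit that lowers calcium flow, was at 3.87, 1.96 and 2.83 FPKM in controls and at 5.25, 5.79 and 4.73 FPKM in mutants, without overlap. Its adjusted p by limma was 1.00, and 0.243 with the replicate block. Grik4, a kainate subunit of the same kind as Grik5, was at 2.36 ± 0.612 FPKM in controls and 1.93 ± 0.516 FPKM in mutants.

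Of 16 other GABA-A subunit genes, 4 were tested and 9 stayed under 1 FPKM in all columns. Gabra3, an alpha subunit gene, was at 3.10 ± 0.880 FPKM in controls and 3.40 ± 1.26 FPKM in mutants, above Gabra2 in both groups. The beta subunit gene Gabrb2 was at 1.29 ± 0.317 FPKM in controls and 1.17 ± 0.466 FPKM in mutants, with overlapping groups. Gabbr1, a subunit of the metabotropic GABA-B receptor, was at 19.6 ± 8.43 FPKM in controls and 15.9 ± 5.74 FPKM in mutants. Its partner Gabbr2 was under the filter, at 0.156, 0.174 and 0.128 FPKM in controls and at 0.475, 0.476 and 0.419 FPKM in mutants. These Gabbr2 values did not overlap, and its adjusted p in limma's fit without the filter was 0.708.

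Of the 5 glycine receptor subunit genes, Glrb and Glra2 had mutants above controls without overlap, and the other 3 stayed under 1 FPKM. Glra2, the alpha subunit of the embryonic glycine receptor, was at 0.242, 0 and 0.149 FPKM in controls and at 3.45, 2.83 and 1.37 FPKM in mutants. It entered the tested rows through its mutant columns alone, and it was the 1 gene of the 48 with all controls under 1 FPKM. Its own p is therefore not given, and nothing is read from its place in the counts above. Glra2 lies on the X chromosome, and the part of sex in its values was not tested.

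Of the scaffold and auxiliary proteins, 19 of 28 were tested. Their median log2 difference was -0.10. Without overlap, 2 of the 19 were above and 1 below, beside 4.22% and 5.03% of all tested rows. Dlg2 encodes PSD-93, a scaffold that anchors glutamate receptors. It was at 1.01, 1.67 and 0.969 FPKM in controls and at 3.22, 3.97 and 2.69 FPKM in mutants, with an adjusted p by limma of 0.670, or 0.0784 with the replicate block. Its relatives Dlg1, at 32.7 ± 3.16 FPKM in controls and 38.2 ± 4.27 FPKM in mutants, and Dlg4, at 27.7 ± 10.8 and 28.4 ± 13.1 FPKM, overlapped. Grip1, a protein that binds the tails of GluA2 and GluA3, was at 4.78 ± 0.343 FPKM in controls and 6.49 ± 0.528 FPKM in mutants, without overlap. Olfm1, a secreted protein found with AMPA receptors, was the gene below, at 25.8 ± 1.70 and 20.5 ± 1.99 FPKM. Cacng7, an AMPA receptor auxiliary subunit, was also lowest in litter 1, at 15.8, 99.7 and 95.5 FPKM in controls and 15.0, 68.4 and 91.3 FPKM in mutants.

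Of the 3 genes of the ADAR family of RNA editing enzymes, Adarb1 and Adar overlapped between the groups. Adarb1, which edits the pore codon of GluA2, was at 2.78 ± 0.658 FPKM in controls and 2.28 ± 0.105 FPKM in mutants. Adar was at 11.6 ± 1.48 and 11.2 ± 1.73 FPKM. Adarb2, a relative with no known editing activity, was under the filter, at 0.292, 0.278 and 0.442 FPKM in controls and at 1.11, 0.878 and 0.758 FPKM in mutants, without overlap. It is on the authors' deposited list. Whether the Gria2 RNA was edited cannot be seen from expression levels.

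Genes for making and loading GABA were low, and those for GABA breakdown and glutamate uptake named here were at higher levels. Gad1 and Gad2, which make GABA, were at most 0.189 and 0.536 FPKM, and the vesicular GABA transporter gene Slc32a1 at most 0.436 FPKM. Abat, which breaks GABA down, was at 27.0 ± 2.40 and 28.6 ± 1.65 FPKM. Slc1a3, a glutamate uptake transporter, was at 7.49, 5.58 and 6.02 FPKM in controls and at 10.9, 11.7 and 11.2 FPKM in mutants. All its mutant columns were above its controls, with an adjusted p by limma of 0.670, or 0.105 with the replicate block. The 7 tested anchoring proteins of GABA-A receptors, which include Gabarap, Nlgn2 and Gabarapl1, had a median log2 difference of 0.02 and none without overlap. The 2 tested metabotropic glutamate receptors, Grm7 and Grm8, had log2 differences of -0.07 and 0.34 and overlapping groups.

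**Figure D5:**
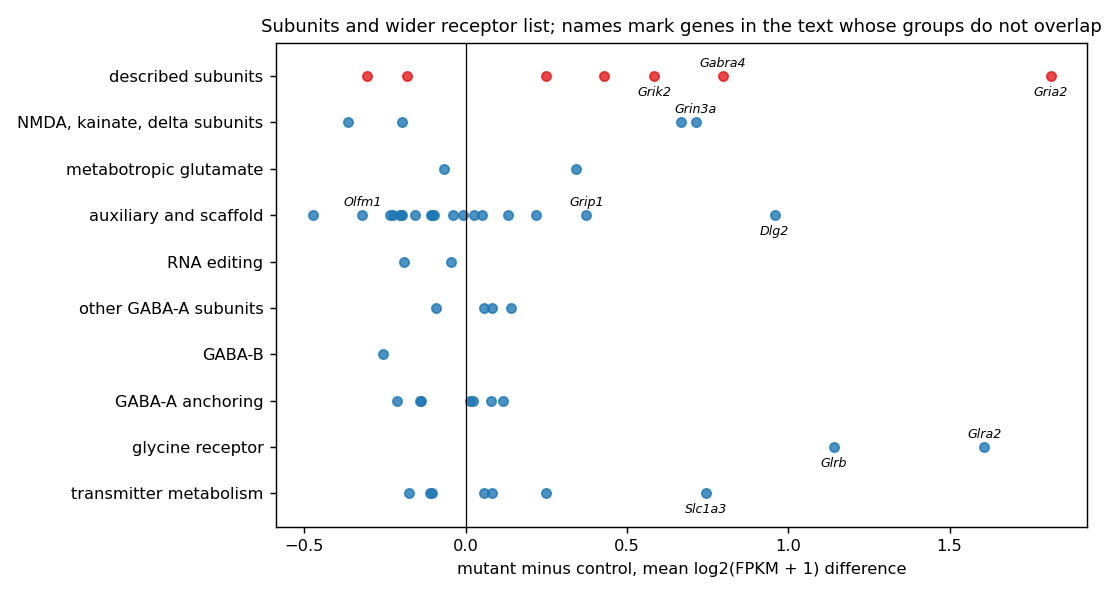
Mean difference of mutant from control in log2(FPKM + 1) for each tested gene, one row per list, with the 7 tested subunit genes described here in red and the 48 tested genes of the wider lists in blue. Names mark genes given in the text whose mutant and control columns do not overlap; most points of the wider lists lie near 0, and Glra2, Glrb, Dlg2, Slc1a3 and Grin3a lie furthest to the right.

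The rows most like Gria2 and Gabra4 were found by Pearson correlation of log2(FPKM + 1) over the 6 columns, among 11014 rows with 1 gene name and a mean of 2 FPKM or more. For Gria2 they were Agtr2 (0.989), Ndst4 (0.980), Pdlim5 (0.978), Hdac9 (0.974) and Pde4d (0.973). Agtr2, an angiotensin receptor gene, was at 141, 150 and 146 FPKM in controls and at 219, 204 and 196 FPKM in mutants. Ndst4, a heparan sulfate enzyme gene, had a level nearer to Gria2, at 0.884, 0.628 and 0.738 FPKM in controls and 5.24, 3.77 and 2.55 FPKM in mutants. For Gabra4 they were Sall1 (0.991), B230118H07Rik (0.988), Lmo1 (0.985), Slc14a1 (0.984) and Rprd1a (0.977). Sall1, a zinc finger transcription factor gene, was at 2.27, 2.66 and 2.33 FPKM in controls and at 5.70, 6.98 and 8.94 FPKM in mutants. Lmo1, a transcription cofactor gene, was at 9.85, 13.1 and 10.5 FPKM in controls and at 22.2, 25.4 and 32.6 FPKM in mutants. With each column centred on its litter mean, which leaves 3 free values, the nearest rows were Tspan12, Atxn10, Fam188a, Zfp451 and Pdlim5 for Gria2. They were Tmem45a, Snapc3, Usp9x, Pgm2 and Fam105a for Gabra4. Only Pdlim5 is in both lists of Gria2, and Gabra4 has no gene in both. These correlations share 6 columns from 3 litters and the same normalisation, and are given with no test.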

How the data were processed

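The labels place RNA from sorted limb cells in 2 genotypes and 3 litters. The deposited table holds values normalised by Cuffdiff with its geometric method, per the file headers, stated above each litter separately. Its unit was taken as FPKM because Cuffdiff reports FPKM, although the authors' header does not print it. TopHat, Cuffdiff and mm9 are named in the submitters' processing notes, without versions or annotation. The table has 24102 rows, and depth is unknown. Column sums ran from 347708 to 439109 FPKM, which is no measure of depth.

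The 2 groups were fitted on log2(FPKM + 1) with limma 3.58.1 (R 4.3.3, trend option). Rows with 1 FPKM or more in at least 3 of 6 columns were tested (12314), with Benjamini-Hochberg adjustment of p over all of them. The script was tested on simulated data. The members, lists and alternatives were chosen with earlier results of these data known. Litter numbers pair the columns, since the labels say that they mark litters. Deviations from the group means correlated at 0.873, 0.568 and 0.770 within litters 1, 2 and 3, and at most at 0.167 across litters. Fits with litter as a replicate block were therefore set beside the main ones.

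Named genes are the 9 members, Shox2, the up to 3 most abundant tested genes of each wider list, the genes next to Gria2 and to the GABA-A cluster, 5 rows most like Gria2 and Gabra4, and markers; others were chosen after their values were seen. Gene order came from a RefSeq table of GRCm38.p6, another build than that of the files, so no other coordinates are given. Promoter windows are from RefSeq on GRCm38.p6. Some genes that this rule takes are not reported here.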

Additional observations from a re-analysis of the deposited data

How the results depend on the processing

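Alternatives were another pseudocount (0.1 or 0.5), no filter or a mean of 5 FPKM or more, litter as a replicate block, quantile normalisation, median scaling, column weights and leaving out each column or litter pair. The count of rows called was 0 in the main fit and with the replicate block, 15 with column weights, and 0 to 1 over the fits without one column (1 without the control or the mutant of litter 3). With the replicate block, leaving out the litter 2 pair gave 303 of 12471 tested rows, the litter 3 pair 27 of 12430 and the litter 1 pair 0 of 12482. These last fits have 2 columns a group, and the cause was not tested. In the wider lists 4 genes were called with the replicate block without the litter 2 pair (Slc1a3, Glrb, Dlg2 and Glra2), 1 without the litter 3 pair (Glra2) and 0 in the others. Glra2 had passed the filter through its mutant columns alone. Its calls are listed only as part of these counts, and nothing is read from them. The median log2 difference of the wider lists, -0.04 in the main fit, was 0.0137 with no filter, 0.0283 with column weights and 0.0218 with the replicate block without the litter 1 pair. It ran from -0.0772 to 0.0665 without one column. The log2 difference of Gria2 stayed above 0 in all 17 alternatives (1.48 to 2.21), and that of Gabra4 in all 16 that gave a value (0.72 to 1.13), where 1.13 came with a pseudocount of 0.1 and 0.95 with 0.5. Smaller pseudocounts also raised Grik2 to 1.07 and Gabra2 to 1.42. Grik5 had the same sign in 14 of 17 alternatives. The replicate block left the log2 differences of the members as they were (1.81 for Gria2), since each litter has 1 column per group. With no read counts, values under 1 FPKM have an unknown counting error.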
